A study of Homo sapiens with 4 samples.

Results

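The sorting nexins (SNX) are proteins that bind phosphoinositides through a PX domain and sort cargo on endosomes. The part of the data described here holds every peak whose gene name begins with SNX and a digit. The RefSeq gene table lists 30 protein-coding SNX genes among 20056. Of these, 6 had rows in IP replicate 1, with 9 of its 4326 peaks, and 7 had rows in IP replicate 2, with 10 of its 4862 peaks. The family was chosen by its SNX8 peak, which headed the peaks found in both replicates by the lower of its folds. The peak calls and folds of the family are therefore given as descriptions, without tests.

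The study immunoprecipitated poly(A) RNA of untreated U2OS cells, an established human osteosarcoma line, with an antibody to N7-methylguanosine (m7G). The groups are m7G IP, with 2 libraries, and input, with 2 libraries, and input enters only through the fold of IP over input that the authors gave for each peak. The labels do not say whether replicates came from separate cultures, so their spread may be technical. Among 5 bone and mesenchymal markers, COL1A1, SPARC and VIM had a peak in both replicates at the same place, and RUNX2 and COL1A2 had no row. Of 9 markers of other cell types 0 had such a peak (SYP had one in replicate 2 alone), against 10.5% of all protein-coding genes. A peak is not a measure of expression, so these counts do not check the cell label.

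Sorting nexins differ in what accompanies the PX domain. SNX-BAR proteins such as SNX1, SNX2, SNX5 and SNX6 add a BAR domain that bends membranes into the tubules through which receptors leave the endosome, often together with retromer. Other members carry a FERM-like domain that reads cargo tails (SNX17, SNX27), an RGS-homology domain (SNX13, SNX14), a MIT domain (SNX15) or little beyond the PX domain (SNX3, SNX12). m7G forms the cap of mRNAs made by RNA polymerase II and has also been reported inside mRNAs, so peaks at gene starts and peaks elsewhere are described apart.

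Among the 8 SNX genes with a peak, 3 had one that opened no more than 60 nt from the annotated gene start: SNX1, SNX14 and SNX9. Their start regions are shown because an SNX peak opens near an annotated start there. The position of the cap itself was not measured. The lines below run 5′ to 3′ from 70 bases before the annotated start to 30 bases after it, and capitals mark bases inside a deposited peak. The capitals hold in both replicates for SNX1 and in replicate 1 alone for SNX14. For SNX9, which had a peak in replicate 2 alone, they come from that replicate. The sequences are RefSeq's (GRCh38.p14) at chr15:64095912-64096011, plus strand, for SNX1, chr6:85593829-85593928, minus strand, for SNX14 and chr6:157823176-157823275, plus strand, for SNX9.
SNX1: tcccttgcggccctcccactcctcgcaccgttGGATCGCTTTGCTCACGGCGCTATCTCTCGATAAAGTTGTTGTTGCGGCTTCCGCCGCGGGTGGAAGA
SNX14: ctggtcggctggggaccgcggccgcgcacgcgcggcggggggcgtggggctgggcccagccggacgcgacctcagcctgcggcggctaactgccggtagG
SNX9: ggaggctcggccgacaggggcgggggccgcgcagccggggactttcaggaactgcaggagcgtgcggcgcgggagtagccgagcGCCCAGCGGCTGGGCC

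The SNX1 peak opened 38 nt before the annotated start in both replicates, so it covered the start itself. The SNX9 peak opened at base 15 of the gene, and the SNX14 peak at base 30 in replicate 1 and base 60 in replicate 2. Over the full 300-base RefSeq windows (250 bases before the start to 50 after), GC content was 64.3% for SNX1, 68.7% for SNX14 and 82.3% for SNX9, against a median of 58.7% over 35116 windows (interquartile range 47 to 68). All 3 windows held a GC box (GGGCGG on either strand), as did 45.0% of all windows, and none of the 3 held a CCAAT box (CCAAT on either strand), against 34.6% of all windows. The 35116 windows belong to 27305 genes, more than the 20056 protein-coding genes, so this background is not of protein-coding genes alone.

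The share of SNX genes with a peak is given beside that of all protein-coding genes. A peak in replicate 1 was found on 6 of 30 genes (20%, Wilson 95% interval 9.51 to 37.3), against 15.9% of all protein-coding genes. In replicate 2 it was 7 of 30 (23.3%, 11.8 to 40.9), against 17.4%. Peaks of the replicates that were each other's best overlap, with at least 1 bp in common and both on the same strand, are called a shared peak here. A shared peak lay on 5 of 30 (16.7%, 7.34 to 33.6), against 10.5%. These intervals cover counting error only. SNX8, for which the family was chosen, counts in each share, so nothing is concluded from these shares beside the background. The 5 genes were SNX1, SNX8, SNX14, SNX15 and SNX22, and they held 8 of the 2639 shared peaks. SNX12 had a peak in replicate 1 alone, and SNX9 and SNX27 in replicate 2 alone.

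No row was found for the other 22 genes, which were SNX2, SNX3, SNX4, SNX5, SNX6, SNX7, SNX10, SNX11, SNX13, SNX16, SNX17, SNX18, SNX19, SNX20, SNX21, SNX24, SNX25, SNX29, SNX30, SNX31, SNX32 and SNX33. The tables do not measure expression and hold only peaks past a false discovery rate of 0.05, so an absent row does not show that m7G is absent. The genes were grouped by domain from general knowledge, without a domain database. A shared peak lay on 2 of 12 SNX-BAR genes (SNX1 and SNX8) and on 1 of the 4 genes SNX13, SNX14, SNX19 and SNX25 (SNX14). Of 3 genes with a FERM-like domain 0 had a shared peak, and SNX15, the member with a MIT domain, had one. Among the 10 genes placed in none of these groups, 1 had a shared peak (SNX22). SNX1 thus had a shared peak, while SNX5 and SNX6, with which it forms membrane coats, and the SNX-BAR gene SNX2 had no row.

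Folds of the SNX peaks ran from 1.35 to 98.7 in replicate 1 and from 1.44 to 110 in replicate 2. The median was 3.80 for the 9 SNX peaks of replicate 1, against 4.27 for all its peaks, and 3.88 for the 10 of replicate 2, against 3.48. Across the 8 shared SNX peaks the median of the mean log2 fold was 2.00, a fold of 4.01, and across all shared peaks it was 2.02, a fold of 4.04. Both folds were 4 or more at 4 of the 8, against 42.9% of all shared peaks. Apart from 1 SNX8 peak, SNX folds were 8.64 or below.

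**Figure D1:**
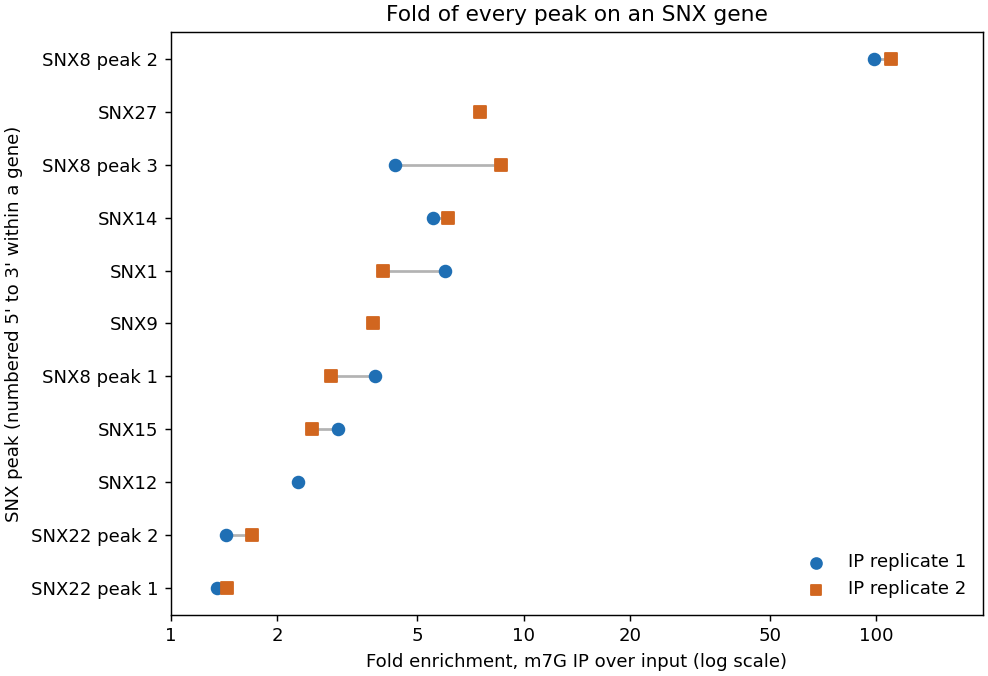
Fold enrichment of m7G IP over input (log axis) for every peak on an SNX gene, with circles for IP replicate 1, squares for IP replicate 2 and a grey line joining the replicates of a shared peak. Peak 2 of SNX8 stands at 98.7 and 110, and every other SNX peak lies at 8.64 or below.

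SNX8 encodes an SNX-BAR protein of endosomes, the counterpart of yeast Mvp1. It was the only SNX gene with 3 shared peaks, and they are numbered here from 5′ to 3′. The gene is on the minus strand of chromosome 7, spanning 2251770 to 2354497 (102728 nt), and all 3 peaks lay in the last 3058 nt before its annotated end. The stretch from the outermost base of peak 1 to that of peak 3 was 2759 nt, 2.69% of the span. The RefSeq promoter windows hold an SNX8 start at 2314441, inside this span, so that share depends on the start taken. No SNX8 peak lay near either start. Each peak was a single block in both replicates.

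Peak 2, the highest, ran from 2252430 to 2253119 in replicate 1 and from 2252490 to 2253149 in replicate 2. Its folds were 98.7 and 110, with log10 p of -26 and -15.1. By fold within a replicate it ranked 6th in replicate 1 and 3rd in replicate 2. The replicates differed by 0.16 on the log2 scale, where the median difference over all shared peaks was 0.30. The choice of this peak by the lower of its folds favours folds that are alike, so nothing is read from that. Both edges agreed within 60 nt and 30 nt, and 92.8% and 92.9% of single-block peaks in the tables had lengths within 1 nt of a multiple of 30 nt, so the edges differ by 2 steps or 1. The peak was also long, with 690 and 660 nt, where the median single-block peak had 150 nt. It ranked 15th and 17th in length among 2993 and 3176 single-block peaks.

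Peak 3 lay nearest the gene end, 239 nt from peak 2 in both replicates. It ran from 2252100 to 2252190 with a fold of 4.33 in replicate 1, and from 2252070 to 2252250 with a fold of 8.64 in replicate 2. Among the shared SNX peaks its folds differed most, by 1.00 on the log2 scale, and its log10 p was -4.12 and -9.56. Over all shared peaks, 95% differed by less than 1.28, so the gap is within the spread between these replicates.

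Peak 1 lay farthest from the gene end, from 2254648 to 2254828 in replicate 1 and from 2254588 to 2254768 in replicate 2. Its folds were 3.80 and 2.84, with log10 p of -6.61 and -4.17. The space between it and peak 2 was 1528 nt in replicate 1 and 1438 nt in replicate 2. Peaks 1 and 3 were lower in fold than peak 2 and shorter, at 91 to 181 nt. Peak 3 in replicate 2 still ranked 599th of 4862 by fold.

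Within SNX8 the strongest peak exceeded the weakest 26.0-fold in replicate 1 and 38.7-fold in replicate 2. From the mean log2 folds the ratio was 31.7. Across the 85 protein-coding genes with at least 3 shared peaks the median ratio was 2.20, and SNX8 ranked 1st, with FOSL2, an AP-1 transcription factor, at 19.9 after it. This ranking was computed because SNX8 was known to hold the top shared peak by the lower of both folds. It therefore describes the size of the contrast and tests nothing.

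**Figure D2:**
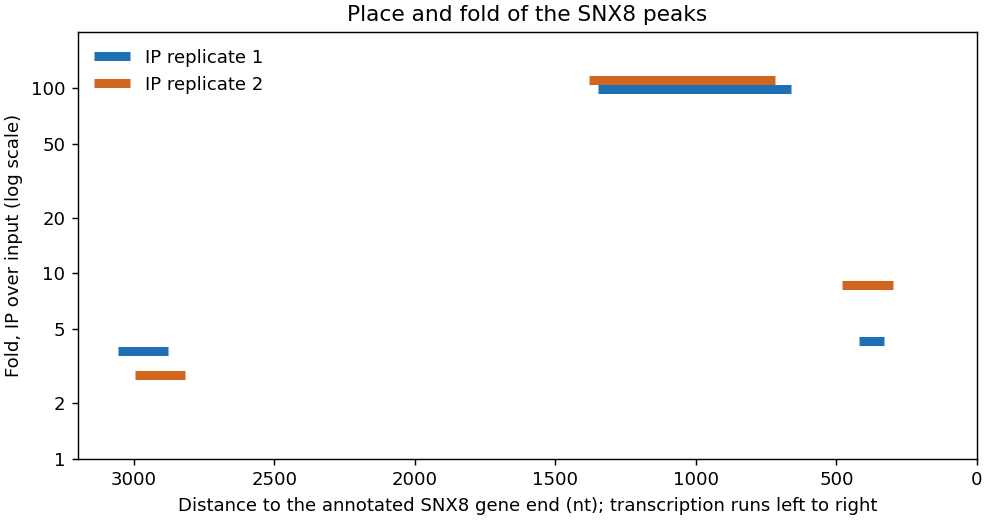
Place and fold of the SNX8 peaks, with the distance to the annotated gene end in nt on the x axis (transcription runs left to right) and the fold of IP over input on a log y axis. Each bar is a peak, and peak 2 is both the widest and the highest, at 98.7 and 110, while peaks 1 and 3 lie between 2.84 and 8.64.

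No other annotated gene covered the SNX8 peaks. The nearest gene past the SNX8 end was NUDT1, which encodes a hydrolase of oxidised nucleotides and whose span stops 624 nt before that of SNX8. NUDT1 had its own peak in each replicate, with folds of 2.35 and 2.31. EIF3B, a subunit of translation initiation factor eIF3, overlaps the other end of the annotated SNX8 span, far from the peaks. The genome sequence under the SNX8 peaks was not used here, so none is printed.

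Some high folds recurred exactly in the tables. Among folds of 10 and above, the commonest was 18.5 in replicate 1, held by 67 peaks, and 10 in replicate 2, held by 60. The fold of SNX8 peak 2 was 11 times that value in replicate 2 and 5.34 times in replicate 1. The read counts behind the folds were not used here, so the part of input depth in this fold was not tested. Among the 9 shared peaks whose folds were both 50 or more, log10 p ran from -92.4 to -5.30 in replicate 1 and from -74.7 to -4.55 in replicate 2, with medians of -13.3 and -10.7, and SNX8 peak 2 was longer than the other 8.

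SNX1 is a founding SNX-BAR protein that forms coats with SNX5 or SNX6 on recycling tubules. Its peak spanned 64095944 to 64112583 on the plus strand of chromosome 15, with the same blocks in both replicates. The block at the start held 229 nt, and the other held 11 nt after a gap of 16400 nt. The folds were 5.99 and 4, with log10 p of -18.4 and -19.3. The replicates differed by 0.58 on the log2 scale, and no other shared SNX peak had the same edges in both.

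SNX14, which carries an RGS-homology domain and is mutated in a recessive cerebellar ataxia, had its peak on the minus strand of chromosome 6. It ran from 85593680 to 85593829 in replicate 1 and to 85593799 in replicate 2. The folds were 5.55 and 6.11, with log10 p of -4.77 and -4.92. Both midpoints lay close to the annotated start, at 104 and 119 nt, and the folds differed by 0.14 on the log2 scale.

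SNX15, whose MIT domain is of the kind found in proteins that bind ESCRT-III, had a peak on the plus strand of chromosome 11, from 65038583 to 65038732 in replicate 1 and from 65038613 to 65038732 in replicate 2. The folds were low, 2.98 and 2.52, with log10 p of -6.25 and -4.89. The midpoints lay 1915 and 1900 nt from the annotated gene end and 11218 and 11233 nt from its start. The annotated span of the readthrough gene ARL2-SNX15 also covers the peak, and the tables name SNX15 for it.

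By midpoint, 2 of the 8 shared SNX peaks (SNX1 and SNX14; 25%, Wilson 95% interval 7.15 to 59.1) lay within 200 nt of the annotated gene start, against 23.6% of all shared peaks. The 8 peaks lie on 5 genes, with 3 on SNX8 and 2 on SNX22. They are thus not independent, as the interval takes them to be. At the other end, 2 of the 8 (SNX8 peak 3 and SNX22 peak 2) had midpoints no more than 1000 nt from the annotated gene end, against 15.3% of all. SNX8 peak 2 fell just outside that limit, with midpoints at 1004 and 1049 nt. The start-proximal peaks had folds of 4 to 6.11, so the highest SNX fold was not at a gene start.

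**Figure D3:**
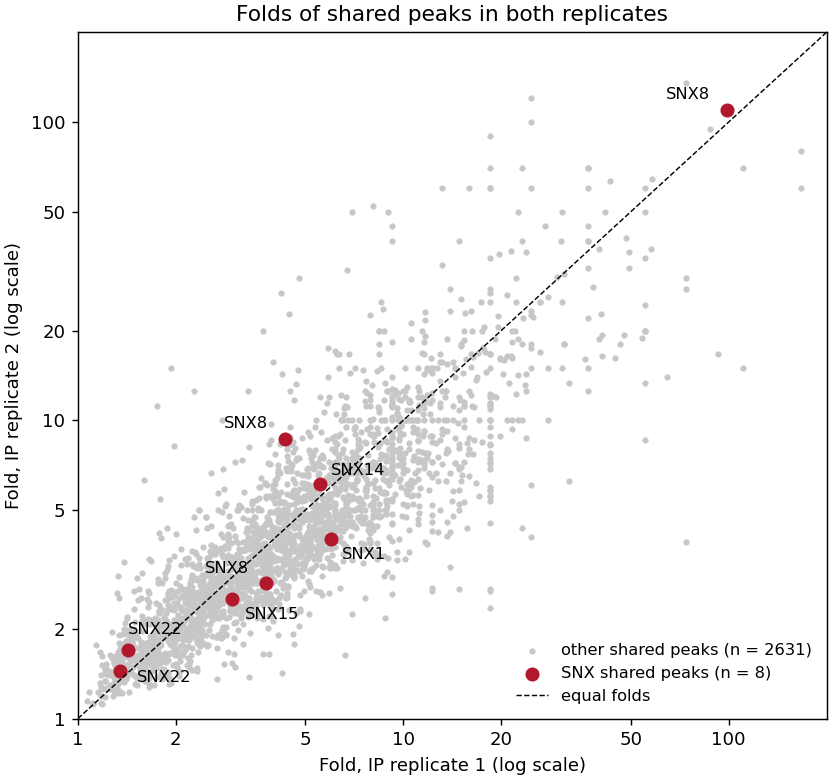
Fold in IP replicate 1 (x) against IP replicate 2 (y) for all 2639 shared peaks on log axes, with the 8 SNX peaks in red and a dashed line where folds are equal. The SNX peaks follow the cloud from SNX22 near the origin to SNX8 peak 2 in the upper corner.

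Both SNX22 peaks overlapped a peak of another gene on the opposite strand. SNX22 encodes a small PX-domain protein, and the last 1665 nt of its span, on the plus strand of chromosome 15, lie over the end of PPIB, which encodes cyclophilin B, a folding enzyme of the endoplasmic reticulum. SNX22 peak 1 started at 64156048 and ended at 64156227 in replicate 1 and at 64156257 in replicate 2, with folds of 1.35 and 1.44. Peak 2 ran from 64156735 to 64156973 in replicate 1 and from 64156705 to 64157003 in replicate 2, with folds of 1.43 and 1.70.

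A PPIB peak of 3 blocks on the minus strand had folds of 1.36 in replicate 1 and 1.55 in replicate 2. Its block from 64156050 to 64156145 lay wholly inside SNX22 peak 1 in both replicates. Its block from 64156725 to 64156909 lay wholly inside SNX22 peak 2 in replicate 2, and 94.6% of it did in replicate 1. The PPIB blocks covered 53.3% of SNX22 peak 1 and 73.2% of peak 2 in replicate 1, and 45.7% and 61.9% in replicate 2, so each SNX22 peak also reached beyond them. The log10 p of the PPIB peak was -17.4 and -36.5, beside -11.8 and -16.5 for SNX22 peak 1 and -14.6 and -33.8 for SNX22 peak 2. Within a replicate, the folds of SNX22 and PPIB differed by 0.15 or less.

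Overlap with a peak of another gene on the opposite strand was rare in the tables, at 0.855% of peaks in replicate 1 and 0.802% in replicate 2, and among the SNX genes SNX22 alone had it. The library kit keeps strand, but the labels and headers do not say whether the peak calling used it. SNX22 and PPIB signal therefore cannot be told apart here, and the SNX22 values are uncertain. Without SNX22, an alternative chosen after seeing the data, 4 SNX genes had a shared peak and the median log2 fold of their 6 shared peaks was 2.42.

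**Figure D4:**
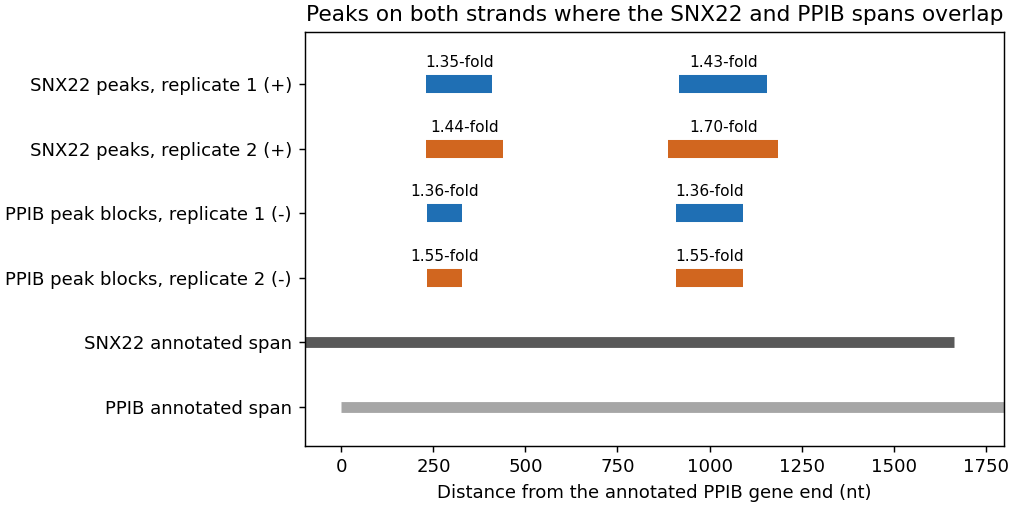
Peaks on both strands where the SNX22 and PPIB spans overlap, by distance in nt from the annotated PPIB gene end, with the fold above each bar (the PPIB fold is that of its whole 3-block peak, of which 2 blocks are drawn). Each SNX22 bar on the plus strand overlaps a PPIB block on the minus strand and reaches beyond it, with folds of 1.35 to 1.70 for SNX22 and 1.36 to 1.55 for PPIB.

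Fold and significance ordered the SNX peaks differently. SNX22 peak 2 in replicate 2, with a fold of 1.70, had the lowest p of any SNX peak (log10 p of -33.8), whereas SNX8 peak 2, with a fold of 110 in the same replicate, had -15.1. SNX1, with folds of 5.99 and 4, had log10 p below -18 in both replicates.

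**Figure D5:**
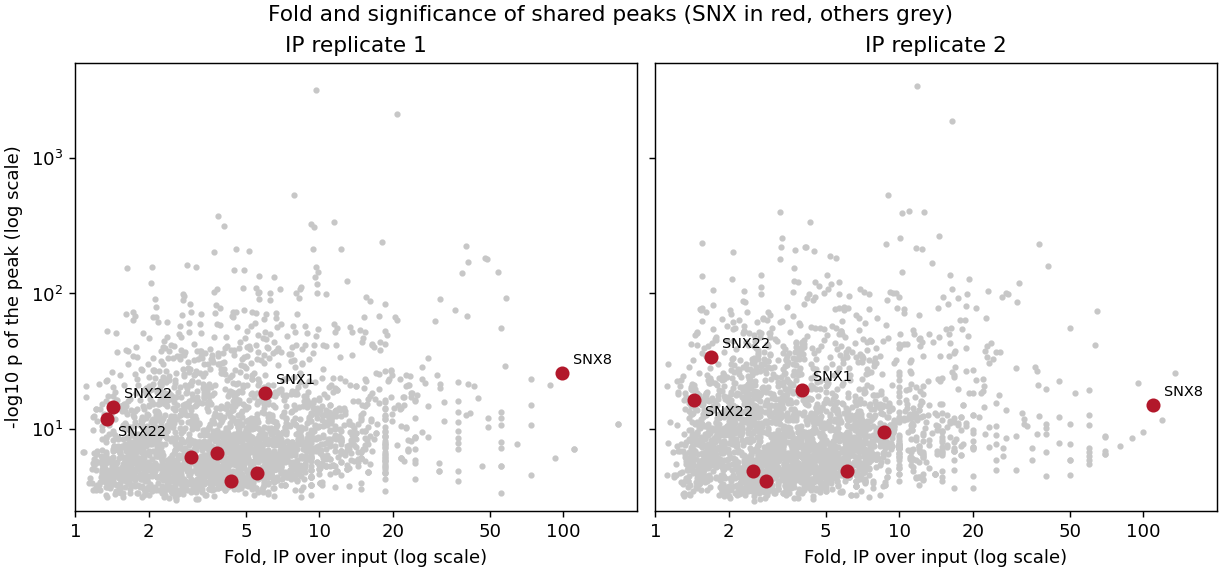
Fold of IP over input (x, log axis) against -log10 p of the peak (y, log axis) for the shared peaks, 1 panel for each IP replicate, with SNX peaks in red and labelled where -log10 p is at least 10. SNX22 sits at the left with folds under 2, SNX1 in the middle and SNX8 peak 2 at the far right.

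Peaks of a single replicate were found on 3 SNX genes. SNX9, which joins dynamin and actin assembly at clathrin-coated pits, had a peak in replicate 2 from 157823260 to 157823409 on the plus strand of chromosome 6, with a fold of 3.75 and log10 false discovery rate of -2.47. SNX27, a PDZ- and FERM-like protein that returns receptors to the plasma membrane with retromer, had one in replicate 2 from 151696752 to 151696841 on the plus strand of chromosome 1. Its fold was 7.5, above every other SNX fold outside SNX8 (at most 6.11), and its log10 false discovery rate was -1.84. SNX12, a close relative of the retromer adaptor SNX3, had one in replicate 1 from 71059636 to 71059756 on the minus strand of chromosome X, with a fold of 2.29 and log10 false discovery rate of -2.63.

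All 3 were among the weaker calls. In replicate 2, 22.4% of the 1099 peaks with log10 false discovery rate at or above -2.47 overlapped a replicate 1 peak, against 55.9% of all its peaks. In replicate 1, 30.8% of the 1273 peaks at or above -2.63 overlapped a replicate 2 peak, against 62.6% of all. SNX8 peak 3 in replicate 1 and SNX8 peak 1 in replicate 2 were as weak as these and were shared. A peak seen in a single table does not show that the replicates differ at that gene.

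Genes of the machinery that works with sorting nexins were counted in the same way. Of 6 retromer and Retriever genes, VPS26A, a retromer arrestin-like subunit, had a shared peak, with folds of 14.9 and 11.7 and a midpoint 64 nt from the annotated start in replicate 1. VPS26C, listed under an older name, had a peak in replicate 2 alone (5.00). VPS35, the retromer backbone, and VPS29 had no row.

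Of 8 WASH and CCC genes, WASHC1, which promotes actin assembly on endosomes, had a shared peak (3.94 and 2.52). This gene has near-identical copies elsewhere in the genome, so its value is uncertain. Of 16 early endosome genes, RAB5A and RAB5C had shared peaks. RAB5A, a GTPase that defines early endosomes, had folds of 19.3 and 12.0 with the midpoint 175 nt from the annotated start. RAB5C had 4.27 and 2.74 at the stronger of its 2 shared peaks, 146 nt from its annotated end. These shares, 16.7%, 12.5% and 12.5%, stand beside 10.5% of all protein-coding genes.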

How the data were processed

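Anti-m7G IP and input libraries of U2OS poly(A) RNA were prepared with a stranded mRNA kit, per the labels' protocols. The submitters' processing notes name STAR and GRCh38, and no source used here names the peak caller. The authors deposited a separate peak table for each IP replicate. Per the file headers, a peak carries a p-value, log10 values of p and of the false discovery rate, handled as a score, and a linear fold of IP over input. All deposited peaks had a false discovery rate under 0.05. Read counts were not used here, so the depth behind each fold is unknown and single folds have no interval.

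Members were taken by gene name, and every member is named. The members, lists and domain groups were chosen with earlier results of these data known. Names were matched to RefSeq genes (GRCh38.p14) by symbol or synonym within 2000 nt of the peak, for 99.9% and 99.8% of peaks. Shared peaks were mutually best overlaps of at least 1 bp, block by block and on the same strand. The midpoint of a peak was found along its joined blocks. Distances from it to the annotated gene start and end are genomic, with introns counted. The overlap search was tested on simulated data. No test between groups was run. Coordinates are 1-based. Analyses used numpy 2.4.6, scipy 1.17.1, pandas 2.3.3 and matplotlib 3.10.9 under Python 3.11.15.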

Additional observations from a re-analysis of the deposited data

How the results depend on the processing

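Of 33 recomputed values, 12 moved, taken as over 1.5 times for a count, over 1 SD between replicates for a fold and outside the Wilson interval for a share. With a 50% reciprocal overlap or midpoints within 100 nt, the 5 SNX genes and the 3 shared SNX8 peaks stayed the same. In the more significant part of each table, at or below its median false discovery rate, 3 genes had a shared peak (SNX1, SNX8 and SNX22), 3 had a peak in both replicates, 3 had one in replicate 2 and 4 in replicate 1, against 7 and 6, and 1 SNX8 peak (peak 2) was shared. With a fold of at least 4, 3 genes had a shared peak (SNX1, SNX8 and SNX14), 3 had a peak in replicate 1 and 4 in replicate 2, and 2 SNX8 peaks were shared. The median log2 fold of shared SNX peaks was 2.00, and was 2.29 over the strongest peak of each gene, 1.45 without SNX8 and 2.42 without SNX22. With either replicate left out it was 1.75 to 2.02, SNX8 peak 2 stood at 98.7 to 110, and 6 to 7 genes had a peak, against 5 with a peak in both. No paired analysis was possible because each deposited peak value already sets an IP library against input and no values of single input libraries were used. Depth is unknown, and 2 replicates limit the precision.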

Other observations

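PX-domain proteins that do not carry an SNX name had shared peaks on 3 of 17 genes (17.6%), beside 10.5% of all protein-coding genes. NISCH, which encodes nischarin, a PX-domain protein that binds an integrin tail, had folds of 17.5 and 20, with log10 p of -25.5 and -27.5. SH3PXD2A, the podosome scaffold TKS5, had 7.27 and 8 with its midpoint 260 nt inside the annotated start in replicate 1, and HS1BP3 had 3.65 and 3.50. The folds of these 3 differed little between the replicates.

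ARHGAP33, also known as SNX26, had a peak in each replicate but at different places, with midpoints 6874 nt and 9653 nt from the annotated start and folds of 5.05 and 4. KIF16B (SNX23) and NOXO1 (SNX28), the other genes of the list with an SNX synonym, had no row. PIK3C2A, a class II phosphoinositide 3-kinase, had a peak in replicate 1 alone (8.81), as did SH3PXD2B (3.65) and, among early endosome genes, PIKFYVE, which makes PtdIns(3,5)P2 (15.4). TBC1D5, a RAB7 regulator that binds retromer, had one in replicate 2 alone (3.33).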
